A study of Mus musculus with 8 samples.

Results

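Liver RNA of male mice of the inbred strain C57Bl/6J was compared between animals weaned onto a high fat diet and animals weaned onto a low fat diet. The comparison rests on 4 of the 8 single-colour arrays of the series, chosen by the diets in their labels. In both groups the dams were moved from a standard breeder diet to a defined low fat, vitamin A sufficient diet (12% of energy from fat) at embryonic day 10.5. LF_HF offspring (2 arrays) were then weaned onto a diet with 60% of energy from fat, and LF_LF offspring (2 arrays) continued on the low fat diet. All were sampled at 14 weeks of age after a fast of 4 h. The remaining arrays share the strain, sex, age and fast. BD_HF (2 arrays) had the high fat diet after a breeder diet dam, and VAD_VAD (2 arrays) had a low fat, vitamin A deficient diet from the dam and after weaning.

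The high fat and the low fat diet came from different suppliers, per the labels, so fat content and any other difference in composition cannot be told apart. Nothing in the labels states that the samples of a group are separate animals. The p-values therefore speak only of the spread among the samples hybridised. Whole liver was extracted, so fewer cells of a type and less RNA per cell cannot be told apart.

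The liver takes up, makes, burns and exports fatty acids, and turns cholesterol into bile acids. Hepatocytes make up most of its mass. Kupffer cells, the resident macrophages, sit in the sinusoids beside the endothelium, and stellate cells store vitamin A and make collagen when activated. In fatty or injured liver a further macrophage population that expresses Trem2 and Itgax is known, called lipid-associated macrophages. Adult hepatocytes seldom divide, and many of their metabolic genes differ between the sexes under the pattern of growth hormone release.

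Replicate 1 of LF_HF stood apart from the other 7 arrays. Its negative control spots had a median mean signal of 74.2, against 24.2 to 28.7 elsewhere, and 82.2% of its probes were well above background, against 56.5% to 64.2%. It had no value for 945 of the 17261 genes tested. The SD of the difference between the LF_HF arrays was 1.47 over 16164 genes (log2), against 0.407 to 0.706 in the other groups. Among the 4316 genes with the lowest level, LF_HF replicate 1 was higher than replicate 2 by a median of 1.92. Among the 4315 with the highest level it was lower, with a median difference of −0.89. Counts and leading values are therefore given with and without this array. Without it, LF_HF is replicate 2 alone, and the spread is estimated from the other groups, whose arrays differed less. Counts and p-values without it therefore hold no measure of the spread within LF_HF. They are not comparable with those from all arrays. Levels below are log2 of the processed signal relative to the 75th percentile of the same array, so that 0 is that percentile, and pairs of levels are given for replicate 1 and then replicate 2. Differences are LF_HF minus LF_LF on this log2 scale. Each is followed by its standard error (SE), with n = 2 arrays a group, and p-values are adjusted over all genes tested.

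At an adjusted p under 0.05 in limma, 102 genes (0.591% of those tested) were higher in LF_HF and 344 (1.99%) were lower, together 2.58%. In all 446 the LF_HF arrays lay beyond the LF_LF arrays, as they did in 44.4% of all genes tested. The median difference over all genes was −0.06. Without LF_HF replicate 1, 392 genes (2.27%) were higher and 1544 (8.95%) lower. The median over all genes was then 0.09. Counts in the gene lists below are to be read against the shares of all genes for the same set of arrays. All 446 genes kept their direction, as they had to, since their LF_HF and LF_LF arrays do not overlap. Of the called genes, 47 had no value on LF_HF replicate 1, so that LF_HF replicate 2 alone stood for high fat there. For the other 399, both high fat arrays differed from the LF_LF mean in the same direction, which the lack of overlap also fixes. The count of calls also turned on the remaining arrays, since all 8 share an estimate of the spread. It was 4333 without LF_HF replicate 2 and 114 without either BD_HF array. It was 182 without either VAD_VAD array and 22 without LF_LF replicate 2. Without LF_LF replicate 1, limma called 0 genes, with 1453 at an unadjusted p under 0.05. An exact permutation test of 2 arrays against 2 cannot go below p = 0.333.

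**Figure D1:**
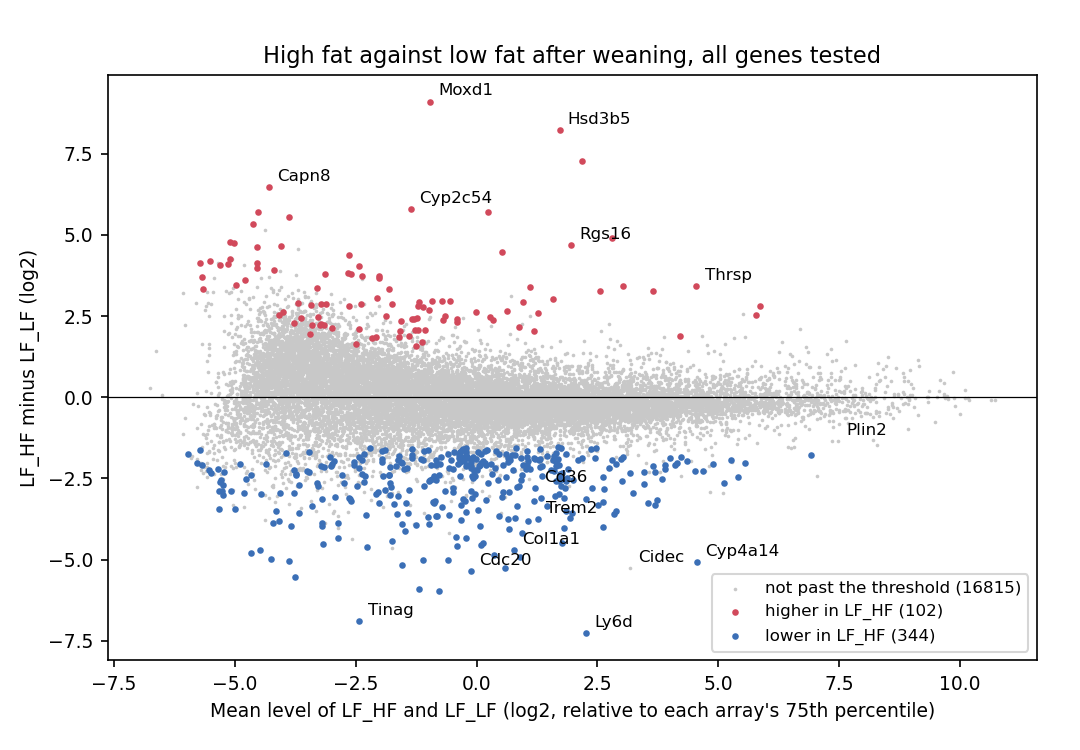
Difference between LF_HF and LF_LF (log2, y axis) against the mean level of both groups (log2 relative to the 75th percentile, x axis) for every gene tested. The 102 genes past the threshold on the high side reach 9.11 (Moxd1), and the 344 on the low side reach −7.27 (Ly6d).

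**Figure D2:**
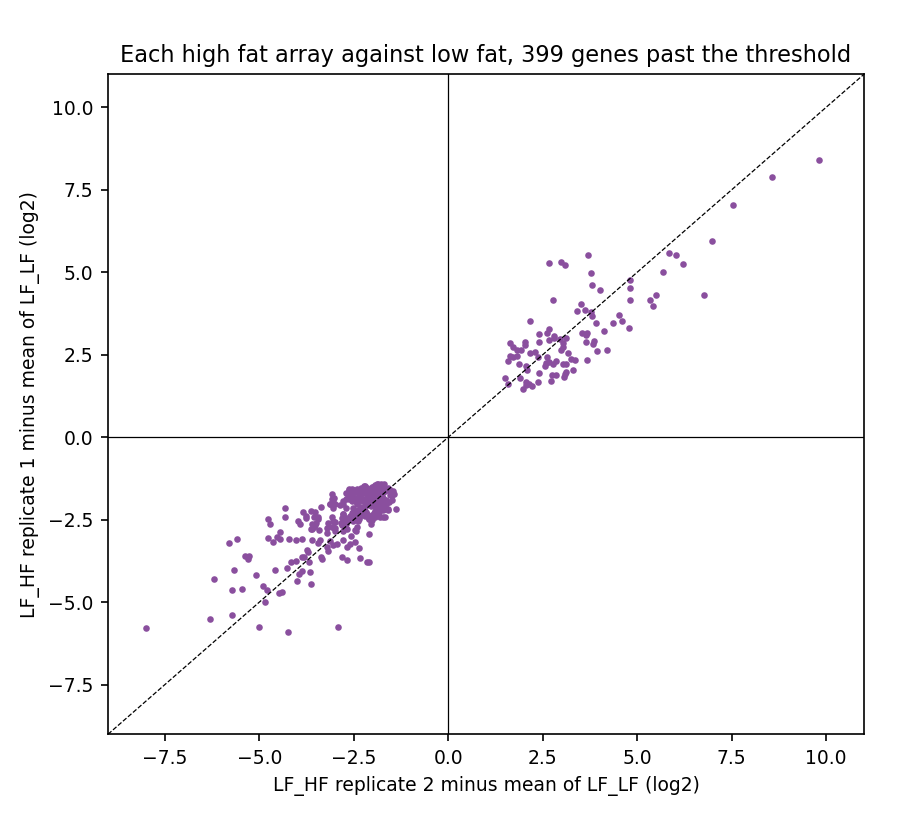
Each of the 399 genes past the threshold with values on both high fat arrays, as LF_HF replicate 1 (y axis) and replicate 2 (x axis) minus the LF_LF mean, in log2 units. The dashed line marks equal values, and for 261 of the 399 genes the difference was smaller on replicate 1.

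The genes that rose most in LF_HF encode hydroxylases, steroid and drug enzymes, and secreted or membrane proteins. Moxd1, a copper monooxygenase (probe at chr10:24022208-24022266, mm9), was at 2.89 and 4.31 in LF_HF, and at −5.22 and −5.80 in LF_LF, where neither array was above background. It rose by 9.11 (SE 0.694, adjusted p = 0.00337), a 551-fold difference between the group means, and by 9.82 without LF_HF replicate 1. Within slide 1 the difference was 8.11, and within slide 2 it was 10.1. The BD_HF arrays, also on high fat, were at −2.46 and −4.34, far below both LF_HF arrays. Hsd3b5, a male-predominant hydroxysteroid dehydrogenase of hepatocytes (probe at chr3:98422848-98422907, mm9), was at 5.49 and 6.18 in LF_HF and at −2.39 and −2.42 in LF_LF. It rose by 8.24 (SE 0.893, adjusted p = 0.00894), and by 8.58 without LF_HF replicate 1. Its close relative Hsd3b4 rose by 7.29, and since the family is nearly identical in sequence, the member measured is uncertain. The VAD_VAD arrays, on low fat, differed from each other for both genes: Hsd3b5 was at 1.18 and 4.37 there.

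Several other genes that rose were below background in LF_LF. Folds given below as at least a value compare group means, so a single array can show a smaller fold. Capn8, a calpain protease, was at −1.57 and −0.54 in LF_HF, −7.44 and −7.61 in LF_LF, −2.20 and −2.83 in BD_HF, and −5.82 and −7.06 in VAD_VAD. Both high fat groups thus stood above both low fat groups, and LF_HF was at least 44.8-fold above LF_LF (adjusted p = 0.00432). The same order of arrays held for Wif1, a secreted Wnt inhibitor, at −2.31 and −1.62 in LF_HF and −1.49 and −1.93 in BD_HF. Its low fat arrays were at −7.21 and −7.40 in LF_LF and at −5.08 and −5.45 in VAD_VAD, and it was at least 23.9-fold higher in LF_HF than in LF_LF. Obp2a, an odorant-binding lipocalin, was at least 29.3-fold higher, and Irx1, a homeobox factor, at least 39.1-fold. Tmeff2, a membrane protein with follistatin domains, was at least 17.6-fold higher. The adjusted p of these 4 genes ran from 0.00337 (Wif1, Obp2a) to 0.0303 (Tmeff2).

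The Cyp2c family of drug and fatty acid hydroxylases supplied 2 of the leading genes. Cyp2c54 was at 1.28 and 1.79 in LF_HF and −4.60 and −3.89 in LF_LF, and rose by 5.78 (SE 0.384, adjusted p = 0.00337). Cyp2c37 was at 4.65 and 5.85 in LF_HF and 0.48 and 0.20 in LF_LF, and rose by 4.90. In both genes the BD_HF arrays lay with LF_HF, and the VAD_VAD arrays fell between LF_HF and LF_LF: Cyp2c37 was at 3.64 and 3.14 there. Members of this family share sequence, so the gene named for each probe is uncertain. Susd4, a complement inhibitor, rose by 5.72, and Rgs16, a regulator of G protein signalling that responds to feeding, rose by 4.70. For Rgs16 the LF_LF arrays were the low ones, at −0.82 and 0.04, while the 6 others ran from 3.58 to 5.37. Dct, a melanin synthesis enzyme, rose by 4.48 and Crxos, a homeobox gene, by 4.38.

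**Figure D3:**
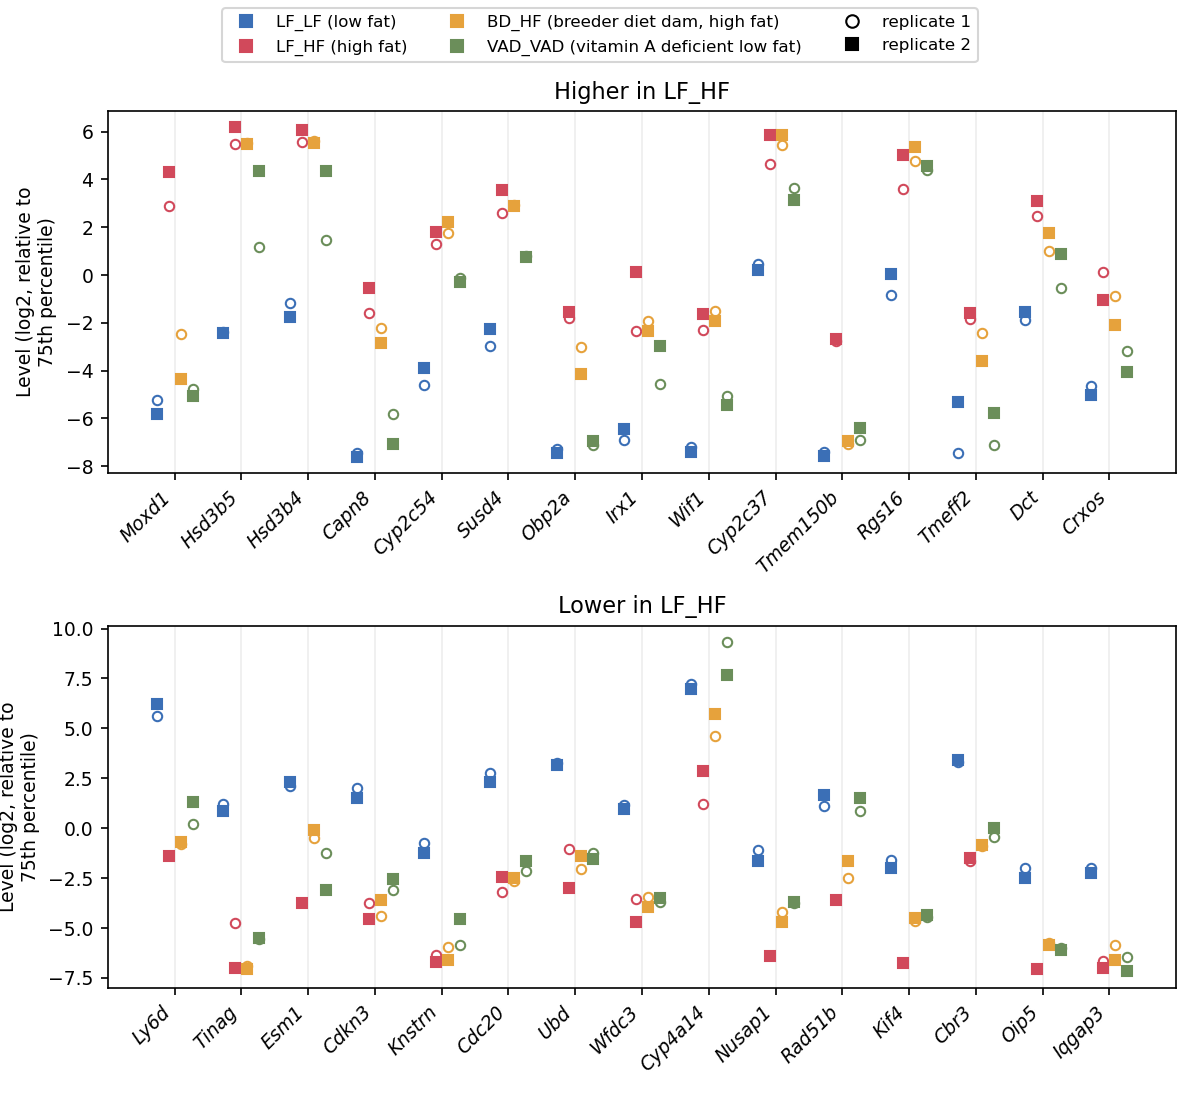
Level of the 15 genes with the largest rise (top) and the 15 with the largest fall (bottom) on each array, in log2 relative to the 75th percentile. Open circles are replicate 1 and filled squares replicate 2, and for genes such as Ly6d the LF_HF replicate 1 value is missing.

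Surface, matrix and mitotic genes were among those that fell most. Ly6d, a surface protein (probe at chr15:74592551-74592610, mm9), was at 5.60 and 6.21 in LF_LF and at −1.37 on LF_HF replicate 2, with no value on replicate 1. It fell by 7.27 (SE 0.565, adjusted p = 0.00469). BD_HF was at −0.79 and −0.69 and VAD_VAD at 0.21 and 1.29, so that the LF_LF arrays stood above all the others. Tinag, a basement membrane protein (probe at chr9:76799672-76799731, mm9), was at 1.20 and 0.85 in LF_LF and below background in LF_HF, at least 75.6-fold lower (adjusted p = 0.00483). Esm1, an endothelial proteoglycan, fell by 5.97 on LF_HF replicate 2 alone. Ubd, a ubiquitin-like protein induced by inflammation, fell by 5.24, and by 6.21 without LF_HF replicate 1. Cbr3, a carbonyl reductase, fell by 4.92, from 3.33 and 3.39 in LF_LF to −1.63 and −1.48 in LF_HF. Wfdc3, a secreted protein of the whey acidic protein type, fell by 5.17. Rad51b, a recombination repair protein, fell by 5.01 with no value on LF_HF replicate 1. Its VAD_VAD arrays, at 0.85 and 1.54, overlapped those of LF_LF at 1.13 and 1.66.

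Mitosis and spindle genes were lower in LF_HF. Of 32 members tested, 17 fell and 0 rose, against 1.99% of all genes lower, and the median difference was −3.30 (all genes −0.06). Without LF_HF replicate 1, 27 fell and the median was −4.15. Within slide 1, which holds the replicate 1 arrays, the median was −2.41, and within slide 2 it was −3.83. The 17 differences ran from −2.08 to −5.90. Cdc20, which activates the anaphase-promoting complex (probe at chr4:118105536-118105595, mm9), was at 2.79 and 2.33 in LF_LF and −3.18 and −2.43 in LF_HF. It fell by 5.36 (SE 0.389, adjusted p = 0.00337), a 41.2-fold lower signal, and by 4.99 without LF_HF replicate 1. The BD_HF arrays were at −2.66 and −2.52 and the VAD_VAD arrays at −2.14 and −1.62. The pair of LF_LF arrays was thus the high one, and both the other high fat group and the other low fat group lay near LF_HF.

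The same placing of arrays held for the next members. Cdkn3, a cyclin-dependent kinase phosphatase, was at 2.00 and 1.54 in LF_LF and −3.73 and −4.54 in LF_HF, and fell by 5.90 (SE 0.452, adjusted p = 0.00337). Ccnb2, the mitotic cyclin B2, was chosen after its values were seen. It was at 2.56 and 2.15 in LF_LF and −2.34 and −2.04 in LF_HF, and fell by 4.55. Knstrn, a spindle and kinetochore protein, was below background in LF_HF and at least 18.9-fold lower. Nusap1, a spindle microtubule protein, fell by 5.05, and Kif4, a chromosome-bound kinesin, by 4.97. Both lack a value on LF_HF replicate 1. On replicate 2 their probes, at −6.40 and −6.75, were below the lowest signal above background (−5.73), so both falls are uncertain in size. The other probe of Kif4 had a mean difference of 0.26, with −0.69 and −5.28 in LF_HF against −3.20 and −3.29 in LF_LF, so that only LF_HF replicate 1 was above LF_LF. Outside the list, Oip5, which loads the centromere histone, was at least 11.1-fold lower, with no value on LF_HF replicate 1. Iqgap3, a scaffold protein of dividing cells, fell by 4.71. Its probe was at −6.64 and −7.02 in LF_HF, below the lowest signal above background on each array (−4.70 and −5.73). The size of that fall is thus uncertain. Among the 15 members that did not pass were Cdk1, the mitotic kinase, with a difference of −3.64 (adjusted p = 0.165), and Top2a, a DNA topoisomerase, with −1.47 (adjusted p = 0.679). On LF_HF replicate 2 alone Cdk1 was at −6.67 and Top2a at −5.61, below their LF_LF arrays.

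Promoter windows of the mitosis genes share short sequences. The windows come from RefSeq (build GRCm38.p6) and run from 250 bases before to 50 after the start, and 28 of the list's members matched by symbol. CCAAT, on either strand, is the core of the NF-Y box known from promoters of cell cycle genes. TTTGAA or TTCGAA, on either strand, is the cell cycle homology region read by the DREAM and MuvB complexes. CCAAT was present in 23 of the 28 windows (82.1%), against 38.5% of the 11764 tested genes with a window. It occurred at least 2 times in 18 (64.3%), against 14.3%. TTTGAA or TTCGAA was present in 21 (75%), against 14.6%, and both motifs together in 20 (71.4%), against 6.15%. Among the 16 windows of members that fell, 12 held both motifs. A match describes the letters only, and each motif was searched for on its own. The following stretches, from 170 bases before to 30 after the start, show 3 members with both motifs in capitals and, for contrast, Nusap1 with neither in this window.
Cdc20 (chr4:118437314-118437513, minus strand): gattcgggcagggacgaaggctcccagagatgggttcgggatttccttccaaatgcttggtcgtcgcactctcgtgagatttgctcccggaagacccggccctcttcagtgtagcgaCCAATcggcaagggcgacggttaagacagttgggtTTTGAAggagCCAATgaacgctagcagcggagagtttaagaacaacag
Cdkn3 (chr14:46760371-46760570, plus strand): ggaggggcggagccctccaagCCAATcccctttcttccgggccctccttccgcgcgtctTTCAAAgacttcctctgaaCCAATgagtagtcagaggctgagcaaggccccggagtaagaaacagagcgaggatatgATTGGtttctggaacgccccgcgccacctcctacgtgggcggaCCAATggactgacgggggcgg
Ccnb2 (chr9:70421525-70421724, minus strand): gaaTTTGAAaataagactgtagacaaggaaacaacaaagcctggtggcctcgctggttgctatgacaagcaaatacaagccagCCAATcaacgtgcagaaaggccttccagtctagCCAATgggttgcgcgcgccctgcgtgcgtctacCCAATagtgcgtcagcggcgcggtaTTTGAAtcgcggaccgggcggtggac
Nusap1 (chr2:119618128-119618327, plus strand): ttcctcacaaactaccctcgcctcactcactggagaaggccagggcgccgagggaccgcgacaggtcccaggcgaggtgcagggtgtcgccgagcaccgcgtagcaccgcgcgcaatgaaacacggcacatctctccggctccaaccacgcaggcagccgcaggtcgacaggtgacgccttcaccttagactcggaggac

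Of 26 DNA replication genes tested, 3 fell and 0 rose, with a median of −0.87, and without LF_HF replicate 1, 7 fell with a median of −0.96. All 3 encode subunits of the MCM helicase, which unwinds DNA at replication origins. Mcm6 was at 2.98 and 2.88 in LF_LF and 0.31 and 0.87 in LF_HF, and fell by 2.34 (SE 0.391, adjusted p = 0.0307). Mcm3 fell by 1.67 and Mcm5 by 1.94. With the slide as a block, Mcm5 did not pass (adjusted p = 0.0537).

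Collagens and other matrix genes fell in LF_HF. Of 18 collagen genes tested, 7 fell and 0 rose, with a median of −1.83 (all genes −0.06). With that array left out, 12 fell and the median was −2.25. Col1a1, a chain of type I collagen (probe at chr11:94813075-94813134, mm9), was at 3.30 and 2.94 in LF_LF and −1.50 and −1.67 in LF_HF. It fell by 4.71 (SE 0.400, adjusted p = 0.00445), and all 3 of its probes fell. Its BD_HF arrays were at −1.29 and −0.56, and its VAD_VAD arrays at −0.36 and −1.06. The other type I chain, Col1a2, fell by 3.25, Col3a1 of type III by 3.59, and Col6a3 of type VI by 3.73. The second probe of Col6a3 had a mean difference of 0.75, from 0.003 and −4.91 in LF_HF and −3.06 and −3.34 in LF_LF. The summed level of the collagen list was 91.7 to 112 times the 75th percentile in LF_LF, and 13.5 to 17.6 in LF_HF. It was 18.8 to 24.6 in BD_HF and 21.6 to 31.0 in VAD_VAD.

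Among 26 other matrix and remodelling genes, 9 fell and 0 rose, with a median of −1.83, and 19 fell without LF_HF replicate 1. Lum, which spaces collagen fibrils, was at 3.57 and 3.65 in LF_LF and −0.03 and 0.23 in LF_HF, and fell by 3.50 (SE 0.390, adjusted p = 0.00968). Ccn2, a connective tissue growth factor, fell by 3.20, but its VAD_VAD arrays (3.80 and 3.40) lay above those of LF_LF (2.76 and 2.82). Loxl1, which crosslinks elastin, fell by 3.67 with no value on LF_HF replicate 1. Mmp2, a gelatinase, fell by 3.27, and its adjusted p with the slide as a block was 0.0503. Of 20 TGF-beta pathway genes, 2 fell, both of them ligands, against 1.99% of all genes lower. The list's median was −0.76, and −0.89 without LF_HF replicate 1. Tgfb2 fell by 2.11. Bmp8b fell by 4.51, or 5.81 without LF_HF replicate 1. On LF_HF replicate 2 its probe, at −6.73, was below the lowest signal above background (−5.73), so the size of the fall is uncertain.

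Markers of stellate cells, the main collagen-making cells of liver, moved as follows. Of 17 tested, 1 fell and 0 rose, with a median of −0.99, and 4 fell without LF_HF replicate 1 (median −1.06). The member that fell was Pdgfrb, the receptor for platelet-derived growth factor, at 1.59 and 1.85 in LF_LF and −0.99 and −0.68 in LF_HF (difference −2.56, SE 0.334, adjusted p = 0.0153). The summed level of the list was 96.2 to 113 in LF_LF, 80.6 to 99.4 in LF_HF, 103 to 140 in BD_HF and 83 to 131 in VAD_VAD. The ranges of LF_LF and LF_HF overlapped, unlike those of the collagens. The part of these cells in the matrix result was not tested.

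Markers of lipid-associated macrophages fell most often among the lists of other cell types. Of 18 tested, 12 fell and 0 rose, with a median of −2.22, and all 18 differences were negative. There were 17 that fell without LF_HF replicate 1. Trem2, a lipid-sensing receptor (probe at chr17:48491522-48491581, mm9), was at 3.14 and 3.15 in LF_LF, −0.49 and −0.71 in LF_HF, −0.37 and −0.13 in BD_HF, and −0.01 and 0.71 in VAD_VAD. It fell by 3.75 (SE 0.348, adjusted p = 0.00469). Ms4a7, a membrane protein of macrophages, fell by 3.77 and Cd63, a lysosomal membrane protein, by 3.58. Itgax, the integrin CD11c, fell by 3.37. Its second, dimmer probe had a mean difference of 1.48, with −1.92 and −4.17 in LF_HF and −4.84 and −4.21 in LF_LF. For the second probes of Kif4, Col6a3 and Itgax, LF_HF replicate 1 was the highest of the 8 arrays. The summed level of the list was 319.5 to 328 in LF_LF, 87.1 to 105 in LF_HF, 114 to 138 in BD_HF and 146 to 171 in VAD_VAD.

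Of 14 markers of resident Kupffer cells tested, 1 rose and 0 fell, with a median of −0.76, and all 14 were well above background on every array. When LF_HF replicate 1 was left out, 4 fell and 1 rose, with a median of −0.79. The member that rose was Cd163, the haemoglobin scavenger receptor, at −0.62 and 0.62 in LF_HF and −2.39 and −2.53 in LF_LF (difference 2.46, SE 0.471, adjusted p = 0.0440). With the slide as a block its adjusted p was 0.0563. Its BD_HF and VAD_VAD arrays ran from 0.27 to 0.98, so that again the LF_LF pair stood apart. The summed level of the list was 124 to 126 in LF_LF, 72.3 to 78.9 in LF_HF, 100.3 to 112 in BD_HF and 84.4 to 126 in VAD_VAD.

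MHC class II genes present antigen on macrophages, dendritic cells and B cells. All 8 tested had negative differences, with a median of −1.85, and 3 passed, or 8 without LF_HF replicate 1. Cd74, the invariant chain, was at 5.13 and 5.18 in LF_LF and 3.47 and 2.81 in LF_HF, and fell by 2.01 (SE 0.352, adjusted p = 0.0343). H2-Ab1 fell by 2.07 and H2-Eb1 by 1.92. With the slide as a block their adjusted p was 0.0517 and 0.0565. Of 17 chemokines and receptors, 2 fell: Ccl5, which attracts T cells, by 1.99, and Cxcl14 by 1.65. Leaving out LF_HF replicate 1, 10 of the 17 fell, and their median went from −1.57 to −2.15. For Cxcl14 the VAD_VAD arrays were the lowest, at −3.21 and −3.05. Among 20 interferon response genes, Oasl2 was the only call, against 1.99% of all genes lower. It fell by 1.83 (adjusted p = 0.0602 with the slide as a block). The list's median was −0.54, and −0.85 without LF_HF replicate 1. Of 15 lymphocyte and natural killer cell markers and 9 neutrophil markers tested, 0 passed in limma, with 2 and 1 at an unadjusted p under 0.05. There were 1 and 0 that fell without LF_HF replicate 1.

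Of 11 cholangiocyte markers tested, 2 fell and 0 rose, and 6 fell without LF_HF replicate 1. Cd24a, a surface glycoprotein, fell by 2.43. Krt19, a keratin of duct cells, fell by 2.76 on LF_HF replicate 2 alone, and did not pass with the slide as a block (adjusted p = 0.0689). The summed level of the list was 9.7 to 12.5 in LF_LF, 4.5 to 5.8 in LF_HF, 6.2 to 8.0 in BD_HF and 2.8 to 3.5 in VAD_VAD. Of 15 sinusoidal endothelial markers, 0 passed in limma (5 at an unadjusted p under 0.05), and 14 differences were negative, with a median of −0.83, and 4 fell without LF_HF replicate 1. Their summed level was 58.6 to 59.3 in LF_LF, 25.3 to 50.1 in LF_HF, 82.8 to 99.1 in BD_HF and 84.4 to 103 in VAD_VAD. All 16 hepatocyte markers were well above background on the 4 arrays compared. Of these 16, 0 passed in limma (2 at an unadjusted p under 0.05), and the median was 0.15, a sign that turned in 1 alternative setting. Without LF_HF replicate 1, 1 of them rose. Their summed level was 3475 to 3559 in LF_LF and 2530 to 5658 in LF_HF, with the lower LF_HF value on replicate 1. The part of these markers in the results above was not tested.

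**Figure D4:**
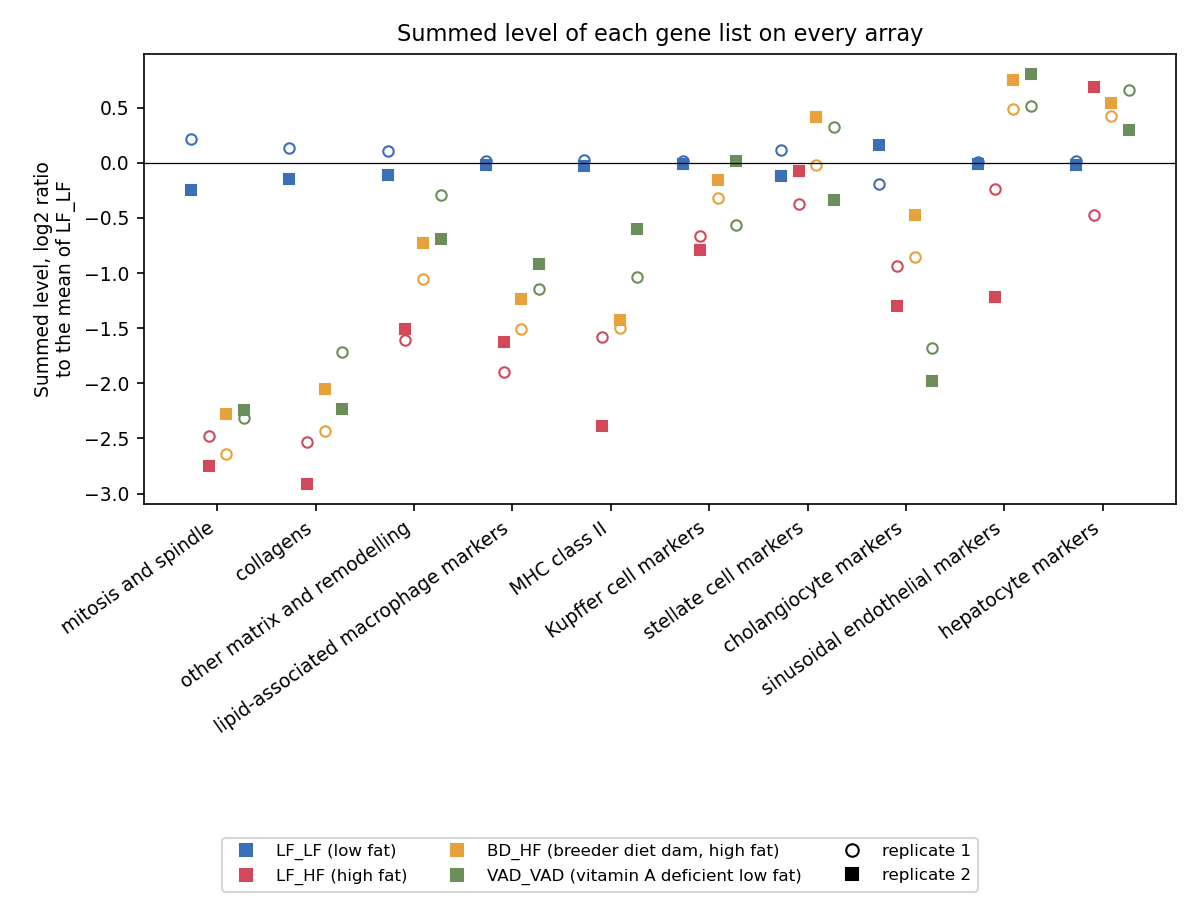
Summed level of each gene list on each array, as the log2 ratio to the mean of the LF_LF arrays, over members with a value on every array. Mitosis and collagen sums lie below LF_LF on all 6 other arrays, whereas LF_HF and LF_LF overlap for stellate and hepatocyte markers.

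Genes of lipid storage and uptake moved in both directions. Cyp4a14, a microsomal fatty acid hydroxylase controlled by PPAR-alpha (probe at chr4:115158914-115158973, mm9), was at 7.24 and 6.96 in LF_LF and 1.20 and 2.85 in LF_HF. It fell by 5.08 (SE 0.734, adjusted p = 0.0215), the only one of 32 fatty acid oxidation and ketogenesis genes to pass. Of all genes tested, 2.58% passed. The median of the 32 was −0.26, and 0.17 without LF_HF replicate 1. The BD_HF arrays of Cyp4a14, at 4.61 and 5.74, lay between those of LF_HF and LF_LF, and its VAD_VAD arrays were the highest at 9.33 and 7.68. Cd36, a fatty acid translocase, was at 2.53 and 2.69 in LF_LF and 0.08 and −0.44 in LF_HF, and fell by 2.79 (SE 0.353, adjusted p = 0.0134). Lpl, lipoprotein lipase, fell by 3.34 with no value on LF_HF replicate 1. Fabp5, a fatty acid carrier, was below background in LF_LF and at −2.56 and −3.94 in LF_HF, at least 9.76-fold higher. Fabp5 was low in BD_HF too, at −6.01 and −6.27, and high in VAD_VAD, at −2.23 and −2.20. Of the 17 uptake genes, 1 rose and 2 fell in all, and 2 rose and 4 fell without LF_HF replicate 1.

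Plin4, a coat protein of lipid droplets, was at 1.68 and 2.59 in LF_LF and −1.09 and −0.46 in LF_HF, and fell by 2.91 (SE 0.501, adjusted p = 0.0330). Cidec, which enlarges droplets, was at 5.64 and 5.95 in LF_LF and −0.04 and 1.12 in LF_HF. Its difference of −5.26 had an SE of 1.37 and did not pass (adjusted p = 0.112), and its VAD_VAD arrays were far apart, at 6.47 and 1.57. Cidea, a related protein, differed by −2.59 (adjusted p = 0.0738), and by −3.46 without LF_HF replicate 1. Plin2, the main droplet coat of hepatocytes, differed by −1.35 (adjusted p = 0.150) and the lipase inhibitor G0s2 by 0.60. Pparg, the receptor that drives adipogenesis, was at 1.97 and 1.84 in LF_HF and 2.31 and 2.62 in LF_LF, a difference of −0.56 (adjusted p = 0.561). Of the 18 droplet and lipolysis genes, 1 fell, against 1.99% of all genes lower, and 11 differences were negative. Their median was −0.72, and −0.23 without LF_HF replicate 1.

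Fatty acid synthesis genes had little common shift. Of 23 tested, 1 rose and 1 fell, with a median of −0.05, a sign that turned in 6 alternative settings, and 3 rose and 1 fell without LF_HF replicate 1. Thrsp, a promoter of lipogenesis that responds to carbohydrate and thyroid hormone, was at 2.71 and 2.96 in LF_LF and 6.00 and 6.52 in LF_HF. It rose by 3.42 (SE 0.466, adjusted p = 0.0178), and its BD_HF and VAD_VAD arrays ran from 5.36 to 7.22, so that LF_LF was the low group. Scd2, a desaturase, fell by 3.11. Its hepatic relative Scd1 was at 6.87 and 7.56 in LF_LF and 5.96 and 5.82 in LF_HF, a difference of −1.33 that did not pass (adjusted p = 0.110). Fasn, fatty acid synthase, differed by 0.13 (SE 0.375) and Srebf1, its regulator, by 0.62. Of 25 cholesterol synthesis and uptake genes, 0 passed in limma (7 at an unadjusted p under 0.05). There, 20 differences were positive and the median was 0.89, and 0 passed without LF_HF replicate 1.

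Hormones and fasting genes of the liver had wide spread. Fgf21, a fasting hormone, was at 1.97 and 1.57 in LF_LF and −2.70 and 0.18 in LF_HF, a difference of −3.03 (adjusted p = 0.139) that was −1.59 without LF_HF replicate 1. Pdk4, which restrains glucose oxidation, differed by −2.28 (adjusted p = 0.204). Igf1, the growth factor made under growth hormone, differed by −0.02 (SE 0.385), and its 4 probes had mean differences from −1.66 to 0.27. Saa1, an acute phase protein, was at 4.22 and 8.73 in LF_HF, on either side of the LF_LF values of 5.60 and 5.98.

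Bile acid genes rose where they passed. Of 22 tested, 3 rose and 0 fell, with a median of 0.44, against 0.591% of all genes higher. Without LF_HF replicate 1, 8 rose and 1 fell. Slco1a1, a hepatocyte uptake transporter that is also male-predominant, was at 2.34 and 3.27 in LF_HF and −0.36 and −0.83 in LF_LF, and rose by 3.40 (SE 0.417, adjusted p = 0.0126). Nr0b2, the nuclear receptor SHP that represses bile acid synthesis, was at 1.31 and 1.71 in LF_HF and −1.03 and −0.90 in LF_LF. It rose by 2.48 (SE 0.327, adjusted p = 0.0159), and LF_HF was above all 6 other arrays. Akr1d1, a steroid reductase of the pathway, rose by 1.82. Cyp7a1, the rate-limiting enzyme of bile acid synthesis, was at 2.04 and 1.87 in LF_HF and 2.56 and 2.26 in LF_LF, a difference of −0.46 (adjusted p = 0.752).

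Of 29 drug metabolism genes tested, 4 rose and 3 fell, with a median of 0.38. Leaving out LF_HF replicate 1, 9 rose and 3 fell, with a median of 0.66. Within the Cyp2c family, Cyp2c39 rose by 2.67 and Cyp2c55 fell by 2.39. Besides Cyp2c54 and Cyp2c37, Nr1i3 rose, the nuclear receptor CAR that controls Cyp2 genes, from −0.17 and 0.13 in LF_LF to 2.30 and 2.84 in LF_HF (difference 2.59, SE 0.377, adjusted p = 0.0218). A pair of glutathione transferases of the alpha class fell, Gsta2 by 4.04 and Gsta1 by 3.31, the latter with no value on LF_HF replicate 1. Their sequences are alike, so the member measured is uncertain. Of 18 NRF2 antioxidant genes, 3 fell and 17 differences were negative, with a median of −0.96, and 5 fell and 1 rose without LF_HF replicate 1. Srxn1, which reactivates peroxiredoxins, was at 5.24 and 4.96 in LF_LF and 2.64 and 2.49 in LF_HF, and fell by 2.53 (SE 0.305, adjusted p = 0.0118). Gpx2, a glutathione peroxidase of epithelia, fell by 3.19 on LF_HF replicate 2 alone. Nqo1, a quinone reductase, fell by 1.91, and its adjusted p with the slide as a block was 0.0537.

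All the animals were male, and in male liver the male-biased genes are the more active set. Of 14 male-biased genes, 3 rose (Hsd3b5, Susd4 and Slco1a1) and 13 differences were positive, with a median of 0.77, and 6 rose without LF_HF replicate 1. Of 13 female-biased genes, 0 passed in limma (5 at an unadjusted p under 0.05). There, 11 differences were negative, the median was −1.23, and 4 fell without LF_HF replicate 1. Cyp3a41a, a female-predominant P450, was at 8.36 and 8.15 in LF_LF and 5.22 and 6.43 in LF_HF (difference −2.43, adjusted p = 0.0551). Its relative Cyp3a16 differed by −2.29 (adjusted p = 0.0532). Without LF_HF replicate 1 their differences were −1.83 and −1.73. Which Cyp3a member each of these probes measured was not tested. Of 15 growth hormone signalling genes, 0 passed in limma (3 at an unadjusted p under 0.05), with a median of 0.34 whose sign turned in 1 alternative setting. With LF_HF replicate 1 left out, 5 rose and the median was 1.09. Lifr, the receptor for leukaemia inhibitory factor, differed by 1.87 (adjusted p = 0.0883), and by 2.48 without LF_HF replicate 1.

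Of 13 imprinted and fetal liver genes, 2 fell, and 5 fell without LF_HF replicate 1. H19, an imprinted RNA of fetal liver, was at −1.03 and −0.15 in LF_LF and −3.42 and −3.58 in LF_HF, and fell by 2.91 (SE 0.464, adjusted p = 0.0276). Afp, the fetal albumin relative, fell by 1.98, with VAD_VAD arrays at −0.06 and 0.07. Cela2a, a pancreatic elastase, rose by 2.23, and Myh2, a muscle myosin, rose by 3.79 but did not pass without LF_HF replicate 1 (adjusted p = 0.0538). Cela2a was the only call among 5 pancreatic acinar markers tested, and Myh2 the only call among 6 skeletal muscle markers. The medians of these marker lists were 0.50 and 0.47, and −0.007 and −0.13 without LF_HF replicate 1. No member passed in 20 of the 45 lists. Among these, Crp, an acute phase protein, differed by 1.67 (adjusted p = 0.0551), and by 1.57 without LF_HF replicate 1. The pericentral genes Cyp2e1, an ethanol-oxidising P450, and Slc1a2, a glutamate transporter, differed by 2.11 and 2.05 (both adjusted p = 0.0577). With LF_HF replicate 1 left out their differences were 2.53 and 2.67, and the median of the 15 pericentral genes tested went from 0.63 to 0.83. The acute phase list, with 25 tested, then had 3 that rose. Of the 15 pericentral genes on all arrays, 12 differences were positive and 6 had an unadjusted p under 0.05 in limma, all of them higher. The summed level of that list was 101 to 152 in LF_LF and 298 to 552 in LF_HF. It was 481 to 573 in BD_HF and 264 to 394 in VAD_VAD. The enzymes Psat1 and Phgdh of serine synthesis were chosen after their values were seen. Psat1 fell by 4.34 (adjusted p = 0.0449), and by 2.92 without LF_HF replicate 1. It was at −6.45 and −3.62 in LF_HF. The replicate 1 value was below the lowest signal above background there (−4.70), so the size of the fall is uncertain. Phgdh fell by 3.59 with no value on LF_HF replicate 1 (adjusted p = 0.0267).

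**Figure D5:**
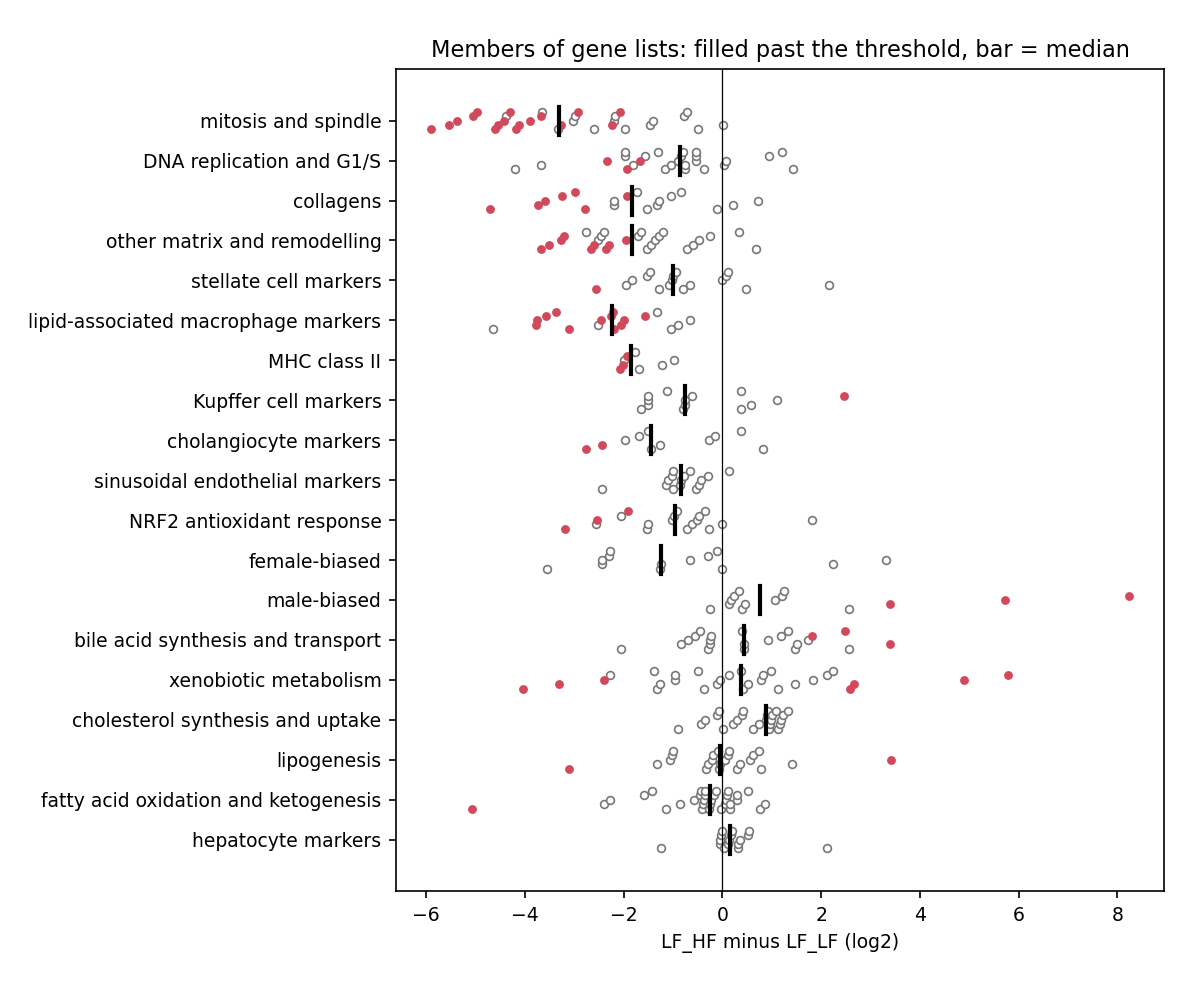
Difference between LF_HF and LF_LF (log2, x axis) for each tested member of 19 gene lists (rows), with filled points past the threshold and a bar at the list's median. The medians lie at −3.30 for mitosis, −2.22 for lipid-associated macrophages, −1.85 for MHC class II and −1.83 for both matrix lists.

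The high fat groups differed by the diet of the dam, and this comparison shares the LF_HF arrays with the one above. Of 17261 genes, 1 (0.00579%) passed. Tmem150b, a membrane protein, was at −2.74 and −2.69 in LF_HF, −7.05 and −6.93 in BD_HF, −7.42 and −7.58 in LF_LF, and −6.89 and −6.39 in VAD_VAD. LF_HF stood above the other 6 arrays, on each of which the probe was below the lowest signal above background. Tmem150b was higher in LF_HF than in BD_HF by 4.27 (adjusted p = 0.0292) and higher than in LF_LF by 4.79 (SE 0.316, adjusted p = 0.00337). Both differences are uncertain in size, since the lower signals cannot be told from background. The call against BD_HF was lost with the slide as a block and without LF_HF replicate 1, where limma called 0 genes (1315 and 1492 at an unadjusted p under 0.05). It was also lost without either BD_HF, LF_LF or VAD_VAD array, and without LF_HF replicate 2 the count was 3069. Moxd1, given above for each array, did not pass against BD_HF (adjusted p = 0.116). For Cdc20, Col1a1 and Trem2 the differences from BD_HF were −0.22, −0.66 and −0.35, and their adjusted p ran from 0.782 to 0.831.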

How the data were processed

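Amplified, Cy3-labelled liver RNA was hybridised to Agilent arrays of design 014868, per the labels' protocols and the file headers, and read with Feature Extraction 10.7.3.1. The deposited files give a background-handled, detrended intensity for each spot, per the file headers. The submitters' processing notes also name limma, with no role given. The deposited series table holds the same intensity values, rounded (largest difference 0.497%); its column medians were 15.7 to 27.9 on 7 arrays and 178 on LF_HF replicate 1, it is linear and not centred, and it has no direction to settle.

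Here, outlier spots were left out, spots of a probe averaged (41174 gene probes), log2 taken and each array's 75th percentile subtracted. A reference symbol (GRCm38.p6, for names only) matched 34003 probes (82.6%); probe positions are in mm9. A probe was kept (26231) where some group had both of its arrays well above background, and the probe with the highest mean stood for a gene (17261 genes). Group means were fitted with limma 3.58.1 (R 4.3.3; 4 residual and 3.43 prior degrees of freedom) on all 8 arrays, with Benjamini-Hochberg adjustment. A gene with all of its probes below background in a group has its fold given as a bound. The bound is taken against the higher, on each array, of the lowest signal above background and the probe's own signal. It compares group means and leaves out the sampling error. For Moxd1 it equals the measured fold, since the probe's own signal was the higher on both arrays. Other differences are given as measured, also where the probe used was below background. The fit was tested on simulated data with the same spread on every array and no missing values, unlike the arrays here. Precision is limited by the few arrays in each group. Data handling used data.table (version 1.17.8), and plots used Python 3.11.15, pandas 2.3.3 and matplotlib 3.10.9.

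Named were, per direction, the 15 largest changes among called genes with non-overlapping arrays and no provisional name (39 called genes had one), up to 4 called members of each of 45 lists or, where none passed, up to 2 with the lowest p, and a fixed set of metabolic genes. The genes and lists were chosen with earlier results of these data known. Replicate numbers coincide with slides: each slide holds 1 array of each group. Deviations of same-numbered arrays correlated at 0.0981 to 0.305. The slide was therefore fitted as a block in an alternative setting, while the main fit and its p-values leave it out. Alternatives of background, scaling, filter, probe choice, weights and left-out arrays were run. Results for some named genes are not reported here.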

Additional observations from a re-analysis of the deposited data

How the results depend on the processing

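The count of 446 genes moved to 2492 with normexp and the 75th percentile (56.9% of them higher, against 22.9%), to 1397 with normexp and quantile scaling, to 850 with normexp on negative controls, and to 898 with quantile scaling. It was 186 with the percentile over probes above background on all arrays (45.2% higher, with the median of all genes at 0.14), 30 with no filter, 847 with trend and robust, 19 with array weights (47.4% higher), and 0 with only the 4 arrays compared, where 1859 had an unadjusted p under 0.05. With the slide, which is also the replicate number, as a block, 391 genes passed (31.2% higher), 347 of them among the 446. Leaving out 1 array gave 0 to 4333. The 446 genes kept their direction under every array left out where they had a value, as genes with non-overlapping arrays must. Of them, 14 turned under at least 1 of 7 settings of background, scaling, outlier spots or LF_HF replicate 1. Among the named genes, the block took 8 calls, given beside each. Without LF_HF replicate 1, 1 call of a named gene was lost. The cause was not tested.

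For LF_HF minus BD_HF, the 1 gene became 0 with quantile scaling, with the percentile over probes above background, with no filter, with the stricter filter, with outlier spots kept, with the block and with array weights (302 to 1315 genes at an unadjusted p under 0.05). Leaving out 1 array gave 0 to 3069. Of genes that did not pass, Fasn ran from −0.17 (without LF_LF replicate 2) to 0.42 over the arrays left out, and Saa1 from −1.57 (without LF_HF replicate 2) to 2.93 (without LF_HF replicate 1). Igf1 was at 0.0042 with normexp and quantile scaling, 0.20 with the percentile over probes above background, and 0.0011 without LF_LF replicate 1, and ran from −0.51 without LF_HF replicate 2 to 0.47 without LF_HF replicate 1. Low signal limits the dim genes: 20 called genes were below background in LF_LF and 32 in LF_HF.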
